A study of Mus musculus with 12 samples.

Results

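A mouse embryonic stem cell line that the sample labels name 41585 was compared with wild type cells (WT). The 4 libraries of this comparison, 2 of 41585 and 2 of WT, are 4 of the 12 in the series, and they were taken by the line named in each label. The cells were of the E14 type, with a 129/Ola background, grown in serum and LIF on gelatine with puromycin, which both lines received. Poly(A) RNA was read with a reverse-stranded protocol. The labels describe 41585 as a line in which neither miRNAs nor siRNAs are processed. It belongs to a set of Dicer-complemented lines, in which a form of Dicer was put back into cells that lack the endogenous enzyme. KO stands for the Dicer knockout of the same series, 41584 for a complemented line that the labels call similar to WT, 41589 for a line without siRNA processing, and SOM for a line whose label gives only that name. The form of Dicer each line carries, the part of Dicer1 that was deleted, and whether a line is 1 clone are unknown here. Separate cultures are not stated for the 2 libraries of a line. The p-values therefore cover only the spread between libraries of a line, estimated over all 12 libraries, with n = 2 on each side.

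Dicer is the RNase III enzyme that cuts hairpin precursors into miRNAs and long double-stranded RNA into siRNAs. An Argonaute protein loaded with a miRNA binds messages whose 3' UTR pairs with the seed of the miRNA, and lowers their level. Mouse embryonic stem cells are dominated by 1 seed family, which includes miR-291a, miR-294 and miR-295 from a single cluster and miR-302b from another. This family, and the related miR-17 family, is known to shorten the G1 phase. Cells without Dicer survive, grow slowly and fail to differentiate properly.

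The sequences below show which letters the members of a family share. They are mature miRNAs from RefSeq (GRCm38.p6), written 5′ to 3′, with bases 2 to 8, the seed, in capitals. The first 4 carry the seed that dominates in embryonic stem cells, the next 2 the seed of the miR-17 family, which is that seed moved by 1 base, and the last is let-7, a family that is scarce in embryonic stem cells and abundant in differentiated ones.
mmu-miR-291a-3p: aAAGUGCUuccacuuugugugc
mmu-miR-294-3p: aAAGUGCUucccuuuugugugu
mmu-miR-295-3p: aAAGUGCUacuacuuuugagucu
mmu-miR-302b-3p: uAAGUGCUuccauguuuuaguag
mmu-miR-20a-5p: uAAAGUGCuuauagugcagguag
mmu-miR-93-5p: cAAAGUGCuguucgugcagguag
mmu-let-7a-5p: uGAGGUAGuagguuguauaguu
A message pairs with the first 4 through the 7 letters AGCACTT, and with the miR-17 family through GCACTTT. These matches differ by 1 base at each end, so a stretch such as AGCACTTT holds both.

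The 4 libraries held 6688152 and 8863145 counted reads in WT and 8278262 and 7749302 in 41585. Expression is given in CPM (counts of a gene scaled to a common library size, with TMM factors). CPM is not scaled by transcript length, so levels are compared for 1 gene across libraries and not between genes. The 2 WT libraries correlated at 0.975 over log2 CPM and the 2 libraries of 41585 at 0.973, while a WT and a 41585 library correlated at 0.85 to 0.897. Markers of pluripotent cells were high in all 4, with a summed level of 8981 and 9211 CPM in WT and 9585 and 9132 CPM in 41585 over 22 genes of core and naive pluripotency. Markers of other lineages were uneven. Cdx2, Mesp1, Cer1, Afp, Lum, Postn and Col3a1 each lay at 0 to 0.117 CPM in the 4 libraries. Other markers of the same lineages were well detected, such as Fn1 at 1121 and 1377 CPM in WT and 1011 and 1390 CPM in 41585. Vim and Krt8, given below, were detected in all 4 libraries too.

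One property of the libraries moves with the comparison and could bear on the gene groups below. Genes were split into 5 equal bins by the GC content of their transcript. Against the mean of the 12 libraries, the bin richest in GC (55.2 to 75.5%) minus the poorest (29.6 to 43.7%) had a median log2 level of 1.05 and 0.68 in the 41585 libraries and -0.97 and -0.27 in the WT libraries. The 2 libraries of 41584 also stood apart from each other (0.09 and -0.74), as did those of 41589 (-0.65 and 0.77), while those of KO lay at 0.03 and -0.08. In 41585 against WT the median log2 fold change went from -0.60 in the poorest bin to 0.93 in the richest. The share of genes called higher went from 4.66% to 34.5%, and the share called lower from 27.9% to 2.54%. The part this trend has in each result was not tested. Counts after its removal (with that on transcript length) are given beside the gene groups.

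**Figure D1:**
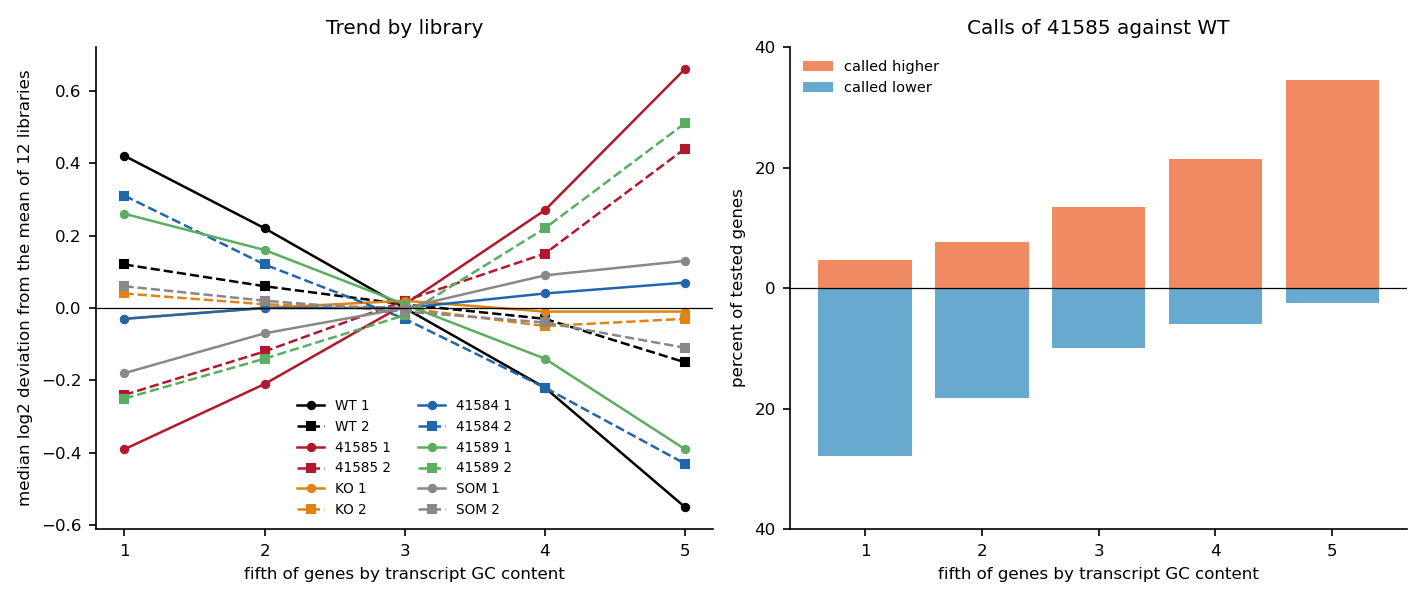
Left, median log2 deviation of each library from the mean of the 12 libraries, for 5 equal bins of genes from low (1) to high (5) transcript GC content. Right, percent of the tested genes of each bin called higher or lower in 41585 than in WT. Both 41585 lines rise to the right and both WT lines fall, and in 41584 and 41589 the 2 libraries of a line part from each other too.

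The first question was whether the targeted gene itself differed. Dicer1 (chromosome 12, 104687742 to 104751952, GRCm38) stood at 29.1 and 39.2 CPM in 41585 and 197 and 214 CPM in WT (log2 fold change -2.59 ± 0.36, adjusted p = 0.00116). Both 41585 libraries lay below both WT libraries, and the call held whichever of the 4 libraries was left out. The knockout libraries held 28.5 and 44 CPM, the 41584 libraries 42.3 and 55 and the 41589 libraries 40.2 and 27.8. The log2 difference of 41585 from KO was -0.08 ± 0.35, and from 41584 -0.51 ± 0.34, adjusted p = 0.318, and neither passed the test. Which reads come from the form put back and which from the endogenous gene cannot be told from counts per gene.

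Genes of the small RNA machinery moved in both directions, 3 of 20 higher and 7 lower, where 16.3% of all 14629 tested genes were called higher, 12.9% lower and 29.2% in either direction. The gene that fell most was Lin28a, which encodes the RNA-binding protein that blocks let-7 maturation. It stood at 18 and 22.4 CPM in 41585 and 121 and 211 CPM in WT (log2 fold change -3.04 ± 0.37, adjusted p = 0.000615), and both 41585 libraries lay below both WT libraries. Its paralogue Lin28b, with the same known role, went the other way, at 58.9 and 72.7 CPM in 41585 and 30.6 and 35.3 CPM in WT (log2 fold change 0.99 ± 0.27, adjusted p = 0.0187). Ago1, which encodes an Argonaute, rose, at 212 and 300.0 CPM in 41585 and 57.7 and 77.7 CPM in WT (log2 fold change 1.92 ± 0.34, adjusted p = 0.0035). Ago3 and Ago4 fell (log2 fold change -1.09 and -2.15). Ago2, the only mouse Argonaute known to cut its targets, stood at 384 and 324 CPM in 41585 and 627 and 520.0 CPM in WT and did not pass the test (log2 fold change -0.70, adjusted p = 0.0739). Tnrc6a, which encodes a GW182 protein that recruits deadenylases to Argonaute, rose (log2 fold change 0.89). The dsRNA-binding partner gene Prkra and the terminal uridylyltransferase genes Tut4 and Tut7 fell (log2 fold change -1.06, -1.22 and -0.65). The genes of the nuclear steps before Dicer had adjusted p of 0.682 for Drosha, 0.705 for Dgcr8 and 0.404 for Xpo5, with log2 fold changes between -0.15 and 0.26. Dicer1 and Lin28a were called whichever library was left out. Leaving out replicate 1 of WT ended the calls of Ago1 (0.0601), Ago3 (0.111), Ago4 (0.221), Lin28b (0.155), Tnrc6a (0.129), Prkra (0.17), Tut4 (0.108) and Tut7 (0.223), given as adjusted p. Ago3 and Tut4 were also lost without replicate 1 of 41585 (0.143 and 0.087). Ago4, Lin28b, Tnrc6a, Prkra and Tut7 were lost whichever of the 4 libraries was left out, and Ago4 and Tut7 also with the GC trend removed. Without that WT library the list held 0 higher and 2 lower members, and without the other libraries 1 higher and 2 to 4 lower. With the GC trend removed it held 3 and 5.

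Over all genes, 4274 of 14629 tested genes (29.2%) were called, 2383 higher and 1891 lower in 41585. The median log2 fold change over all tested genes was -0.001. The count of each list below, with all libraries in the fit, stands beside shares over all tested genes of 16.3% higher and 12.9% lower. Among the called genes, 2096 were higher and 1422 lower by at least 2-fold, and 153 and 88 by at least 16-fold. The call count rests heavily on single libraries. It fell to 419 (2.74% of those tested) without replicate 1 of WT, to 1239 without replicate 1 of 41585, to 1595 without replicate 2 of 41585 and to 2711 without replicate 2 of WT. A set of 388 genes, 227 higher and 161 lower, was called in the same direction in all 4 of these fits. Of these, 385 were also called with the GC trend removed. In the text below, a gene of this set is said to have held, and for most other genes the fits in which they were lost are given. A called gene named without either statement, such as Hnf4a, Gata6, Nes, Id2 or Tead4, was not in this set.

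**Figure D2:**
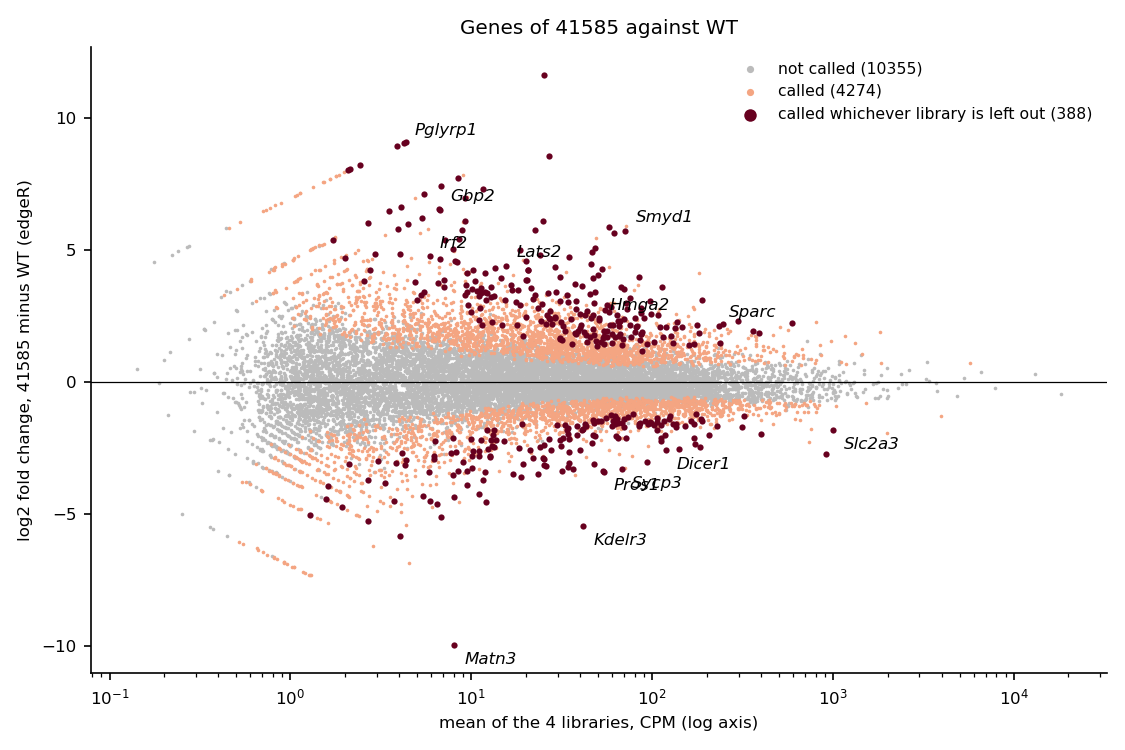
Each point is 1 of the 14629 tested genes, with its mean CPM over the 4 libraries (log axis) and its log2 fold change, 41585 minus WT. Dark points are the 388 genes called whichever library was left out, of which 227 lie above 0 and 161 below.

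The genes with the largest rises were chosen by their fold, with a floor of 5 CPM in the higher group only. Their low levels in WT follow from that choice and are not a result. Pglyrp1, which encodes a peptidoglycan recognition protein, had no read in either WT library and 10.9 and 6.05 CPM in 41585, at least 44.6-fold higher when 3 counts over the WT group are taken as the limit. Evx1, a homeobox gene of the primitive streak, likewise had no read in WT and 7.49 and 8.1 CPM in 41585, at least 40.5-fold higher. Aox3, an aldehyde oxidase gene, Ren1, the gene of renin, and C1qtnf9, a secreted C1q-related protein gene, each had at most 0.155 CPM in a WT library. In the 2 libraries of 41585 they stood at 12.1 and 21.7 CPM (Aox3), 14.5 and 12.6 CPM (Ren1) and 20.5 and 25.6 CPM (C1qtnf9). All 5 held. The same genes stood between 1.54 and 30.1 CPM in KO and at no more than 0.466 CPM in 41584.

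The most certain rises, by adjusted p, were in genes with more reads. Smyd1, a muscle histone methyltransferase gene, stood at 168 and 111 CPM in 41585 and 2.47 and 2.73 CPM in WT (log2 fold change 5.73 ± 0.46, adjusted p = 0.000132). Lgals9, which encodes galectin-9, stood at 140.0 and 88.2 CPM in 41585 and 1.7 and 2.19 CPM in WT (log2 fold change 5.85 ± 0.52, adjusted p = 0.000132), and Serpinb9b, a granzyme-inhibitor family gene, at 49.6 and 39.4 CPM in 41585 and 0.464 and 1.09 CPM in WT (log2 fold change 5.74 ± 0.51, adjusted p = 0.000132). Capn3, a calpain gene of muscle, Pdzd2, a PDZ-domain gene, and Prss35, a serine protease family gene, rose by log2 fold changes of 4.46, 3.19 and 3.69. In each of these 6 genes both 41585 libraries lay above both WT libraries, and each held. They were chosen by their adjusted p, so both points follow largely from that choice and are not a separate result.

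Among the falls, Matn3, which encodes the matrix protein matrilin-3, had 17.3 and 14.9 CPM in WT and no read in either 41585 library, at least 86.5-fold lower. Kdelr3, an endoplasmic reticulum retention receptor gene, stood at 2.34 and 1.29 CPM in 41585 and 84 and 78.4 CPM in WT (log2 fold change -5.46 ± 0.91, adjusted p = 0.00266). Usp51, a deubiquitinase gene, and Nexn, an actin-binding nexilin gene, fell by log2 fold changes of -5.84 and -5.25 from WT levels of 7.42 and 8.42 and 6.5 and 4.05 CPM. Pros1, the anticoagulant protein S gene, Steap2, a metalloreductase gene, and Tro, the trophinin gene, fell from higher levels, with 7.72 and 11.1 CPM in 41585 and 134 and 62.2 CPM in WT for Pros1 (log2 fold change -3.38 ± 0.37, adjusted p = 0.000411). Steap2 stood at 5.85 and 4.37 CPM in 41585 and 43.6 and 49.7 CPM in WT, and Tro at 4.21 and 6.05 CPM in 41585 and 40.7 and 49.9 CPM in WT. All 7 held. Kit, which encodes the stem cell factor receptor, also fell and held, at 46.6 and 31.3 CPM in 41585 and 170.0 and 200 CPM in WT (log2 fold change -2.25 ± 0.24, adjusted p = 0.000411).

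**Figure D3:**
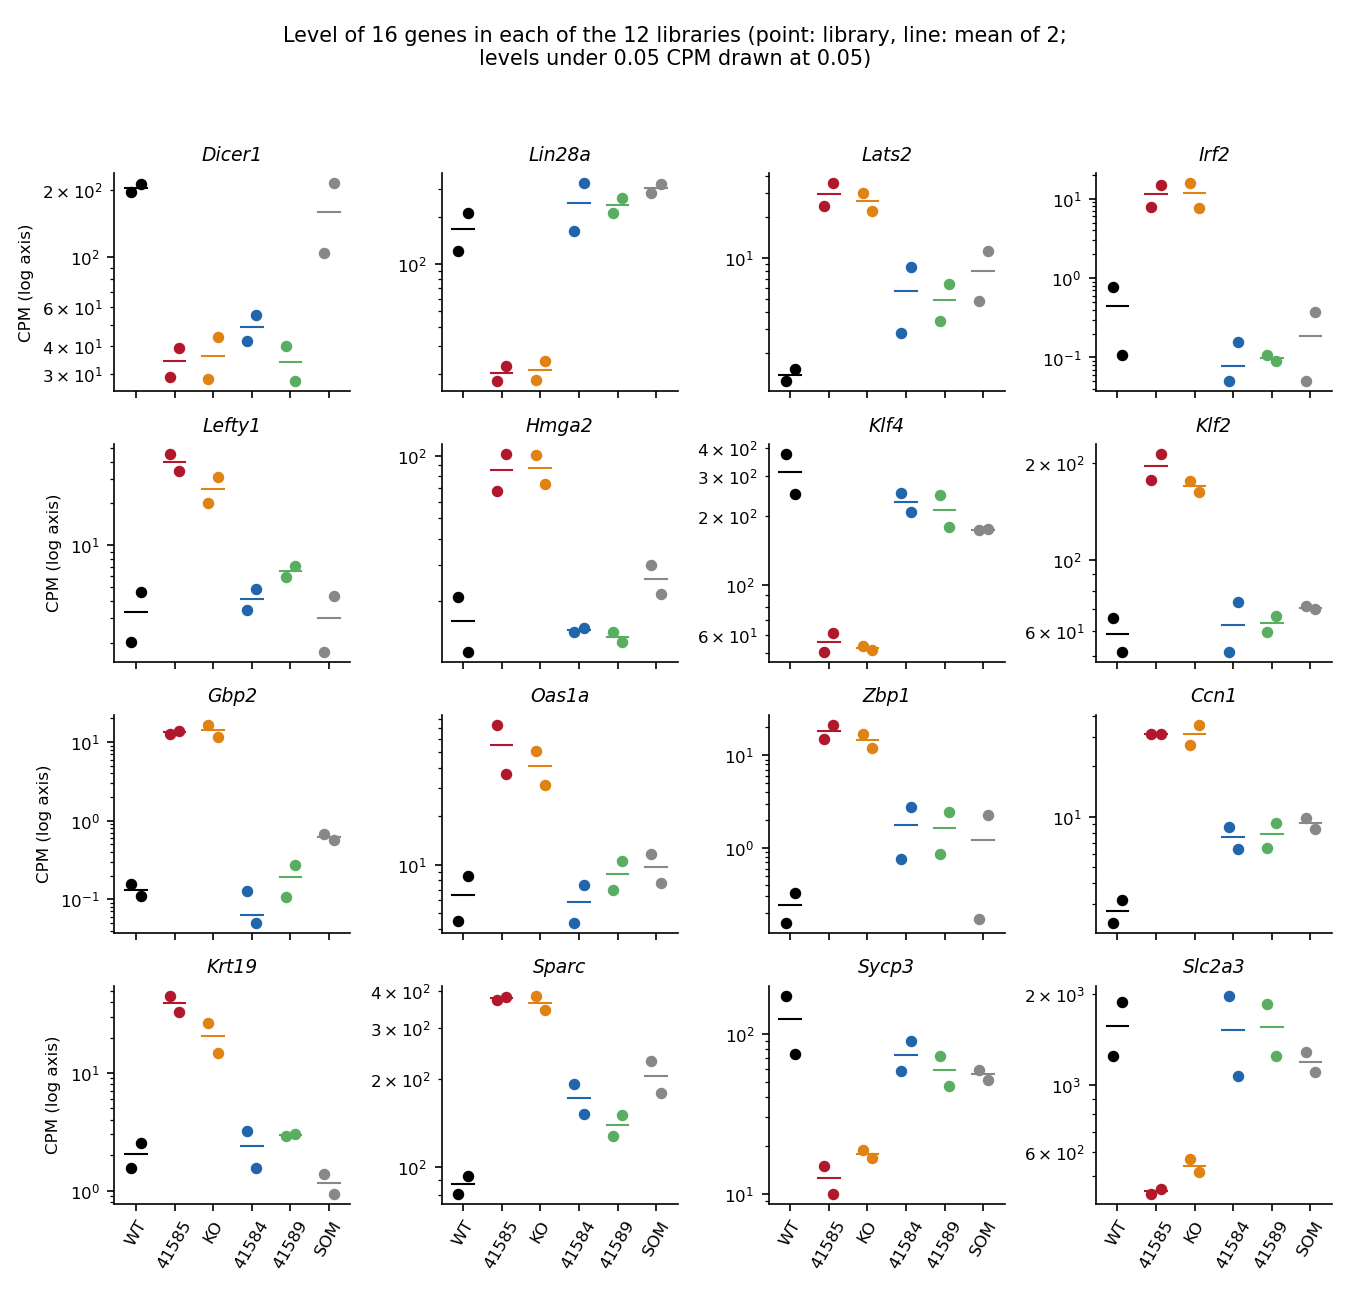
CPM (log axis, own scale for each gene) of 16 named genes in the 12 libraries; each point is a library and each line the mean of 2. In every panel both 41585 points lie on 1 side of both WT points, and the KO points lie on the same side as 41585. All 16 genes were called whichever library was left out, so the separation of 41585 from WT follows from their choice.

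The next question was what happened to messages that pair with the dominant seed. The windows below are 30 bases of the 3' UTR around a match, from the mouse genome GRCm38 in the direction of the message, with the match in capitals. They belong to 3 reported targets that rose in 41585, and in each the match is 8 letters long, the 7-letter match followed by A. The 3 are shown because they rose. Other reported targets with an 8-letter match, given below, were not called.
Lats2, chr14:57691075-57691104, minus strand: agtatggaaagAGCACTTAttttgtggata
Irf2, chr8:46846653-46846682, plus strand: ccttatcttgaAGCACTTAcaataggcctt
Lefty1, chr1:180938202-180938231, plus strand: actgtatgcgaAGCACTTAcatgtatagat
Lats2, the Hippo pathway kinase gene, stood at 24 and 35.5 CPM in 41585 and 1.24 and 1.53 CPM in WT (log2 fold change 4.40 ± 0.63, adjusted p = 0.0014). Irf2, an interferon regulatory factor gene, stood at 7.96 and 14.7 CPM in 41585 and 0.773 and 0.109 CPM in WT (log2 fold change 4.76 ± 0.86, adjusted p = 0.00351). Lefty1, which encodes a secreted inhibitor of Nodal, stood at 45.3 and 34 CPM in 41585 and 2.01 and 4.59 CPM in WT (log2 fold change 3.55 ± 0.50, adjusted p = 0.00126). In all 3 both 41585 libraries lay above both WT libraries, and all 3 held.

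Other reported targets of this seed did not move as a block. Of 19 tested genes of the list, 6 were higher and 1 lower, and the median log2 fold change was 0.68. The list comes from knowledge of the literature, and 17 of the 19 hold a match in the 3' UTR used here. The 2 without one moved in opposite directions. Nr2f2, a nuclear receptor gene, had no read in WT and 3.51 and 4.37 CPM in 41585, at least 20.4-fold higher. Tbx3, a T-box factor gene of naive cells, stood at 126 and 117 CPM in 41585 and 276 and 224 CPM in WT (log2 fold change -1.04 ± 0.25, adjusted p = 0.0106). Cdkn1a, which encodes the cell cycle inhibitor p21, holds 2 matches, 1 of them 8 letters long. It stood at 119 and 138 CPM in 41585 and 106 and 66.8 CPM in WT (log2 fold change 0.58, adjusted p = 0.243). Rbl2, an Rb family gene with an 8-letter match, stood at 26.6 and 40 CPM in 41585 and 36.3 and 27.3 CPM in WT (log2 fold change 0.06, adjusted p = 0.904), and the libraries of the 2 lines overlapped. For Lefty2, the neighbour and paralogue of Lefty1 with an 8-letter match, WT replicates differed widely, at 4.02 and 27.5 CPM against 39.8 and 52.4 CPM in 41585 (adjusted p = 0.0862). Tgfbr2, Mbd2 and Fbxl5 hold an 8-letter match too and were not called (log2 fold change 0.96, 0.68 and -0.63, adjusted p = 0.14, 0.0729 and 0.0695). Leaving out replicate 1 of WT left 3 higher and 0 lower members, without replicate 1 or 2 of 41585 4 and 0, and with the GC trend removed 4 and 1. The call of Nr2f2 ended without WT replicate 1 (adjusted p = 0.0501), and that of Tbx3 without the same one (0.108) or either of 41585 (0.06 and 0.0682).

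Across the transcriptome, 2287 of 12890 tested genes with a 3' UTR of at least 50 bases (17.7%) held AGCACTT in the direction of the message, and 464 (3.60%) held the 8-letter AGCACTTA. In a fit that also held the length and GC content of the UTR, genes with the 7-letter match had a log2 fold change higher by 0.174 ± 0.032, and genes with the 8-letter match by 0.337 ± 0.062. These errors treat genes as independent, which they are not, and understate the true error. The shift was 0.148 and 0.158 in the 2 libraries of 41585 against the WT mean, and was -0.012 between the 2 WT libraries. The miR-17 match GCACTTT, present in 1887 genes (14.6%), gave 0.158 ± 0.034, and its 8-letter form GCACTTTA 0.233 ± 0.056. These 2 families share part of their match, so these are not separate results.

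Matches of other miRNAs gave smaller values for the 7-letter form. The let-7 match CTACCTC in 1392 genes (10.8%) gave -0.002 ± 0.038. The match of miR-16, TGCTGCT, in 24.7% of genes, gave 0.031 ± 0.029, that of miR-26, TACTTGA, in 11.5%, gave 0.002 ± 0.038, and that of miR-200, CAGTATT, in 15.5%, gave 0.01 ± 0.034. Matches of the miR-17 cluster's other members lay between, with 0.075 ± 0.035 for miR-19 (TTTGCAC, 13.4% of genes) and 0.094 ± 0.045 for miR-92a (GTGCAAT, 7.49%). For miRNAs best known from muscle and brain the values were 0.051 ± 0.037 for miR-206 (ACATTCC, 11.5%), -0.038 ± 0.041 for miR-133b (GGACCAA, 8.84%) and 0.048 ± 0.034 for miR-9 (ACCAAAG, 14.2%). For the 8-letter forms the values were 0.144 ± 0.055 for miR-16 and 0.158 ± 0.069 for miR-92a, near the 7-letter value of the dominant seed, and between -0.03 and 0.057 for the other 7. The direction of the main shift depends on the covariates. Genes with AGCACTT have longer UTRs, with a median of 2511 against 990 bases, and without covariates their median log2 fold change was -0.106 against 0.03 in genes without. After removal of the GC and length trends, with no other covariate, the medians were 0.068 and -0.007, and 0.171 in genes with the 8-letter match. A match is a run of letters, and binding was not measured.

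**Figure D4:**
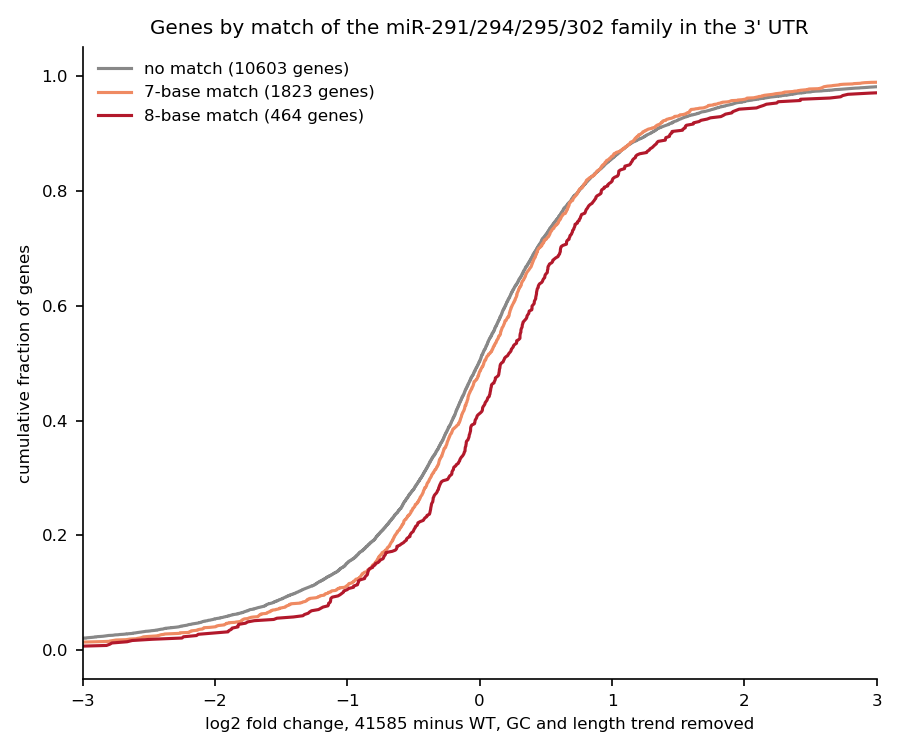
Cumulative fraction of genes by log2 fold change, 41585 minus WT, after removal of the GC and length trends, for genes with no match, a 7-letter match or an 8-letter match of the dominant seed in the 3' UTR. The curve of the 464 genes with an 8-letter match lies to the right of the curve of genes with no match, with medians of 0.171 and -0.007.

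Reported let-7 targets moved in both directions, 8 of 20 higher and 2 lower, with a median log2 fold change of 0.57. Hmga2, which encodes a chromatin protein and is a classic let-7 target, stood at 68 and 102 CPM in 41585 and 20.9 and 11.4 CPM in WT (log2 fold change 2.41 ± 0.34, adjusted p = 0.00126). Nras, a Ras GTPase gene, fell, at 91 and 113 CPM in 41585 and 296 and 245 CPM in WT (log2 fold change -1.41 ± 0.22, adjusted p = 0.00212), as did Lin28a, itself a let-7 target. These 3 held, and in each the libraries of the 2 lines did not overlap. Ccnd1 and Ccnd2, the genes of cyclins D1 and D2, rose, with 226 and 239 CPM in 41585 and 29.7 and 48.5 CPM in WT for Ccnd1 (log2 fold change 2.57 ± 0.54, adjusted p = 0.00684) and 40.4 and 86.1 CPM in 41585 and 3.25 and 3.83 CPM in WT for Ccnd2 (log2 fold change 4.15 ± 0.93, adjusted p = 0.00894). Both were lost without replicate 1 of WT, at adjusted p of 0.0904 and 0.0952. The list held 1 higher and 2 lower members without that library, 3 and 2 without replicate 2 of WT, and 4 and 2 without either library of 41585. With the GC trend removed it held 8 and 3.

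Among regulators of the G1/S step, 7 of 23 were higher and 1 lower, with a median log2 fold change of 0.55. Beside cyclins D1 and D2, the cyclin D3 gene Ccnd3 rose, at 173 and 132 CPM in 41585 and 29.2 and 58.7 CPM in WT (log2 fold change 1.79 ± 0.39, adjusted p = 0.00856). Cdkn2a, the locus of the inhibitors p16 and p19, stood at 5.73 and 2.44 CPM in 41585 and 0 and 0.547 CPM in WT (log2 fold change 3.68 ± 0.91, adjusted p = 0.0119), on only 5 reads in WT. Rb1, the retinoblastoma gene, was the member that fell, at 25.4 and 32.5 CPM in 41585 and 113 and 83.8 CPM in WT (log2 fold change -1.76 ± 0.35, adjusted p = 0.00549). None of the list was called without replicate 1 of WT, where adjusted p was 0.105 for Ccnd3, 0.106 for Cdkn2a and 0.0628 for Rb1. Without replicate 1 of 41585 Ccnd3 (0.0518) and Cdkn2a (0.0879) were lost as well, and the list held 2 higher members. It held 5 without WT replicate 2 and 4 without replicate 2 of 41585. The counts were 6 and 1 with the GC trend removed, and the median fell to 0.23.

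The interferon response and double-stranded RNA sensing list had, with all libraries in the fit, the highest share of members called higher among the 29 lists, 17 of 28, with 1 lower and a median log2 fold change of 2.02. Of its 34 genes, 6 did not pass the filter on low counts. Several effector genes rose from near silence. Gbp2, a guanylate-binding protein gene, stood at 12.8 and 13.8 CPM in 41585 and 0.155 and 0.109 CPM in WT (log2 fold change 6.52 ± 0.69, adjusted p = 0.000314). The WT libraries held 2 reads of it, and the ratio of 41585 to WT has a 95% counting interval of 28.2 to 858. Zbp1, which encodes a sensor of Z-form nucleic acid, stood at 15.2 and 21.4 CPM in 41585 and 0.155 and 0.328 CPM in WT (log2 fold change 6.08 ± 0.97, adjusted p = 0.00208), and Oasl2, an oligoadenylate synthetase-like gene, at 24.1 and 9.39 CPM in 41585 and 0.309 and 0.438 CPM in WT (log2 fold change 5.40 ± 0.87, adjusted p = 0.00263). Oas1a, whose product activates RNase L on binding double-stranded RNA, was detectable in WT and rose further, at 73.8 and 36.5 CPM in 41585 and 4.48 and 8.53 CPM in WT (log2 fold change 3.07 ± 0.48, adjusted p = 0.00208). For these 4 genes both 41585 libraries lay above both WT libraries.

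Factors that drive such genes also rose. Irf1, which encodes an interferon regulatory factor, stood at 76.4 and 74.2 CPM in 41585 and 8.97 and 14.4 CPM in WT (log2 fold change 2.68 ± 0.37, adjusted p = 0.00124), and Irf9, a subunit of the factor that acts downstream of type I interferon, at 50.2 and 55.3 CPM in 41585 and 15.8 and 20.2 CPM in WT (log2 fold change 1.55 ± 0.31, adjusted p = 0.00592). On the sensing side Mavs, the mitochondrial adaptor gene, stood at 49.3 and 49.1 CPM in 41585 and 18.7 and 19 CPM in WT (log2 fold change 1.38 ± 0.25, adjusted p = 0.00409), and Ddx58, the gene of the sensor RIG-I, at 82.8 and 96.9 CPM in 41585 and 4.95 and 20.3 CPM in WT (log2 fold change 2.80 ± 0.77, adjusted p = 0.0197). Ifih1, the gene of the sensor MDA5, stood at 1.99 and 0.257 CPM in 41585 and 0.155 and 0 CPM in WT (adjusted p = 0.0708), and Eif2ak2, the gene of the kinase PKR, at 67.3 and 68.4 CPM in 41585 and 51.3 and 52 CPM in WT (adjusted p = 0.246). Mx1, an antiviral GTPase gene, went the other way, with 1.39 and 2.3 CPM in WT and no read in 41585, at least 10.5-fold lower.

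Gbp2, Zbp1, Oasl2, Oas1a and Irf1 held. Leaving out replicate 1 of WT, the list held 5 higher and 0 lower members of 28, where 1.56% of all tested genes were called higher and the Hippo list, with 4 of 18, and the mesendoderm list, with 1 of 4, had higher shares. It held 10 higher members without replicate 1 of 41585, 12 without replicate 2 of 41585 and 13 without replicate 2 of WT, and 18 with the GC trend removed. Leaving out replicate 1 of WT ended the calls of Irf9 (0.0819), Mavs (0.0565), Ddx58 (0.166) and Mx1 (0.0822). Mx1 did not pass the filter on low counts when replicate 2 of WT was left out, and had no test there. Ddx58 and Mx1 were also lost without replicate 1 of 41585 (0.0835 and 0.0996) or replicate 2 of 41585 (0.0902 and 0.0836). Beside the 4.95 CPM of replicate 1, replicate 2 of WT held 20.3 CPM of Ddx58, and replicate 2 of 41584, a line the labels call similar to WT, held 99.5 CPM.

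The core pluripotency factors stayed expressed, and members of the list moved in both directions, 5 of 22 higher and 4 lower. Nanog stood at 558 and 577 CPM in 41585 and 817 and 697 CPM in WT (log2 fold change -0.42, adjusted p = 0.194), Esrrb at 454 and 464 CPM in 41585 and 406 and 470.0 CPM in WT (0.07, 0.844) and Zfp42, the gene of Rex1, at 607 and 577 CPM in 41585 and 705 and 735 CPM in WT (-0.28, 0.284). The Krüppel-like factors parted. Klf4 fell, at 50.4 and 61.5 CPM in 41585 and 375 and 250.0 CPM in WT (log2 fold change -2.48 ± 0.27, adjusted p = 0.000411), and held. Klf2 rose, at 178 and 214 CPM in 41585 and 65.6 and 51.6 CPM in WT (log2 fold change 1.75 ± 0.24, adjusted p = 0.00116), and was called whichever library was left out, but not with the GC trend removed (log2 fold change 0.58, adjusted p = 0.288). Pou5f1, the gene of Oct4, rose, at 946 and 854 CPM in 41585 and 140.0 and 322 CPM in WT (log2 fold change 1.96 ± 0.45, adjusted p = 0.0096), and Sox2 fell, at 263 and 389 CPM in 41585 and 653 and 474 CPM in WT (log2 fold change -0.79 ± 0.28, adjusted p = 0.0493). Neither was called without replicate 1 of WT (0.111 and 0.318), which held less Pou5f1 than replicate 2. Sox2 was also lost without replicate 2 of WT (0.0532) or without replicate 1 (0.317) or 2 (0.0608) of 41585. The list held 1 higher and 1 lower member with WT replicate 1 left out, 3 and 1 without replicate 1 of 41585, 2 and 1 without replicate 2 of 41585 and 5 and 2 without replicate 2 of WT. It held 2 and 4 with the GC trend removed.

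Genes of the formative and primed epiblast, the state that follows naive pluripotency, were higher in 8 of 15 cases and lower in 0, with a median log2 fold change of 1.55. Zic2, a zinc finger factor gene, stood at 32.9 and 61.5 CPM in 41585 and 3.4 and 6.13 CPM in WT (log2 fold change 3.28 ± 0.69, adjusted p = 0.00682), and Dnmt3b, the de novo DNA methyltransferase gene, at 241 and 288 CPM in 41585 and 56.6 and 93.7 CPM in WT (log2 fold change 1.81 ± 0.43, adjusted p = 0.0113). Otx2, a homeobox factor gene of the epiblast, was uneven, at 32.9 and 140.0 CPM in 41585 and 7.42 and 19.6 CPM in WT (log2 fold change 2.66 ± 0.84, adjusted p = 0.0329). None of the list was called without replicate 1 of WT, with adjusted p of 0.0877 for Zic2, 0.129 for Dnmt3b and 0.225 for Otx2. Dnmt3b (0.0542) and Otx2 (0.314) were also lost without replicate 2 of 41585, and Otx2 without replicate 2 of WT (0.0548). The count was 4 without replicate 1 of 41585, 2 without replicate 2 of 41585 and 5 without replicate 2 of WT. With the GC trend removed it was 6 higher and 1 lower.

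Epithelial adhesion and keratin genes were higher in 11 of 23 cases and lower in 0, with a median log2 fold change of 0.99. Krt19, a simple-epithelium keratin gene, stood at 45.7 and 32.9 CPM in 41585 and 1.55 and 2.52 CPM in WT (log2 fold change 4.24 ± 0.49, adjusted p = 0.00042) and held. Krt8 and Krt18, the keratin pair of the first epithelia of the embryo, rose with a wide spread between the libraries of 41585. Krt8 stood at 191 and 28.6 CPM in 41585 and 4.02 and 6.67 CPM in WT (log2 fold change 4.34 ± 0.82, adjusted p = 0.00457) and Krt18 at 78.9 and 16.1 CPM in 41585 and 8.2 and 10.8 CPM in WT (log2 fold change 2.31 ± 0.70, adjusted p = 0.0287). Jup, the plakoglobin gene, stood at 153 and 141 CPM in 41585 and 8.51 and 17.5 CPM in WT (log2 fold change 3.48 ± 0.59, adjusted p = 0.00283). Cdh1, the E-cadherin gene, rose less, at 766 and 852 CPM in 41585 and 401 and 412 CPM in WT (log2 fold change 0.99 ± 0.25, adjusted p = 0.0142), and Epcam stood at 240.0 and 234 CPM in 41585 and 141 and 111 CPM in WT (adjusted p = 0.0723). When replicate 1 of WT was left out, Krt19 alone of this list was called, with adjusted p of 0.0501 for Jup, 0.0689 for Krt8, 0.187 for Krt18 and 0.118 for Cdh1. Krt18 was also lost without replicate 2 of WT (0.0851), replicate 1 of 41585 (0.454), and with the GC trend removed (0.0924). Cdh1 was also lost without replicate 2 of WT (0.0574) or without replicate 1 (0.0564) or 2 (0.0808) of 41585. The list held 5 members without replicate 2 of WT, 5 without replicate 1 and 8 without replicate 2 of 41585, and 7 with the GC trend removed. In bulk RNA, more cells with a transcript and more of it per cell cannot be told apart.

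Trophectoderm markers, the markers of the outer layer of the blastocyst, were higher in 6 of 14 tested cases and lower in 1, and the members that rose were Krt8, Krt18, Krt19, Cdh3, Id2 and Tead4. The lineage factors were uneven. Cdx2, Elf5, Gata3 and Hand1 lay at 0 to 1.99 CPM in the 4 libraries, and Eomes at 3.86 to 8.04 CPM. Tead4 rose, at 59.2 and 61.7 CPM in 41585 and 24.3 and 28.1 CPM in WT, and Tfap2c was the member that fell, at 39.9 and 20.3 CPM in 41585 and 73.8 and 55.1 CPM in WT. The summed level of the 17 listed genes was 150 and 139 CPM in WT and 512 and 259 CPM in 41585. Krt19 alone was called when replicate 1 of WT was left out, and with the GC trend removed the counts were 4 and 2. Mesenchymal transition genes showed 2 higher and 3 lower of 14, or 35.7% called beside 29.2% of all tested genes. Vim, the vimentin gene, stood at 133 and 143 CPM in 41585 and 26.9 and 52.2 CPM in WT (log2 fold change 1.80 ± 0.43, adjusted p = 0.0111), whereas Zeb1, a repressor gene of epithelial genes, stood at 5.85 and 7.08 CPM in 41585 and 19.8 and 19.9 CPM in WT (log2 fold change -1.62 ± 0.41, adjusted p = 0.0136). Neither was called without replicate 1 of WT (0.127 and 0.0855), and Zeb1 was also lost without replicate 1 (0.0936) or 2 (0.0553) of 41585. This list had 0 calls without replicate 1 of WT, 1 higher without either 41585 library, and 1 and 1 without replicate 2 of WT. Its counts were 2 and 3 with the GC trend removed.

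In primitive and extra-embryonic endoderm, 3 of 16 tested genes were higher and 4 lower, or 43.8% called beside 29.2% of all tested genes. The summed level of the 19 listed genes was 402 and 447 CPM in WT and 1054 and 1163 CPM in 41585. It was 1049 and 972 CPM in KO, 1068 and 987 CPM in 41584, 632 and 1051 CPM in 41589 and 917 and 1107 CPM in SOM. The higher sum was thus not particular to 41585, and the WT libraries had the lowest sums of the series. The members that rose were Lrp2, an endocytic receptor gene, and 2 basement membrane genes, Sparc at 375 and 383 CPM in 41585 and 80.9 and 93.2 CPM in WT (log2 fold change 2.12 ± 0.23, adjusted p = 0.000411) and Lamc1, a laminin gene, at 435 and 554 CPM in 41585 and 83.4 and 114 CPM in WT (log2 fold change 2.32 ± 0.33, adjusted p = 0.00127), both of which held. The members that fell were Dab2, Hnf4a, Gata6 and Pdgfra. The endoderm factors Gata6, Sox17, Foxa2 and Sox7 lay at 0 to 2.94 CPM in the 4 libraries. Gata4 stood at 4.21 and 7.33 CPM in 41585 and 3.71 and 3.17 CPM in WT and was not called, and Hnf4a at 3.04 and 3.22 CPM in 41585 and 9.43 and 13.5 CPM in WT. Dab2, an adaptor gene of endoderm, stood at 0.351 and 0.515 CPM in 41585 and 11.9 and 5.91 CPM in WT (log2 fold change -4.31 ± 0.95, adjusted p = 0.00832). Dab2 was lost without replicate 1 of WT (0.0718) or of 41585 (0.0618). The list held 2 higher and 0 lower members without replicate 1 of WT, and 2 and 1 without either library of 41585, and 3 and 3 with the GC trend removed. Only 4 of 13 mesendoderm genes and 7 of 13 neuroectoderm genes passed the filter on low counts, with 1 higher and 1 lower, and 3 and 1. The members that moved in the first were Evx1, above, and T, the brachyury gene, with 2.94 and 0.766 CPM in WT and no read in 41585, at least 9.07-fold lower. The neuroectoderm members were Pax6 at 5.27 and 5.79 CPM in 41585 and 0.619 and 0.547 CPM in WT (log2 fold change 3.22 ± 0.77, adjusted p = 0.0109), Nes, Tubb3 and, lower, Sox1. No neuroectoderm gene was called without replicate 1 of WT (0.0979 for Pax6), and Pax6 was also lost without replicate 2 of WT (0.0622). T was lost without replicate 1 of WT (0.104) or either library of 41585 (0.0649 and 0.0548). The counts with the GC trend removed were 1 and 2 in mesendoderm and 1 and 1 in neuroectoderm. Of fibroblast and feeder cell genes 6 of 14 were tested and 2 were higher, Vim and Tagln, and neither was called without replicate 1 of WT, while the counts were 2 and 1 with the GC trend removed. Hox genes were called in 0 higher and 1 lower of 6 tested, the latter Hoxc13 (log2 fold change -4.70 ± 0.90, adjusted p = 0.0046), which was lost without replicate 1 of WT (0.0548), and the count was again 0 and 1 with the GC trend removed.

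Matrix and integrin genes showed 8 higher and 3 lower of 24. Beside Sparc and Lamc1, Itgb5, an integrin beta subunit gene, rose and held, at 58.9 and 59.7 CPM in 41585 and 11 and 11.9 CPM in WT (log2 fold change 2.37 ± 0.36, adjusted p = 0.00193). Col18a1, a basement membrane collagen gene, rose from 28.5 and 54 CPM in WT (log2 fold change 2.83 ± 0.60, adjusted p = 0.00707), with both libraries of 41585 above both of WT, and was lost without replicate 1 of WT (0.0929). Beside Matn3, the members that fell were Acan, the aggrecan gene, at 2.81 and 2.32 CPM in 41585 and 15.6 and 15.8 CPM in WT (log2 fold change -2.60 ± 0.67, adjusted p = 0.0148), and Loxl2, a collagen cross-linking oxidase gene, at 6.08 and 5.4 CPM in 41585 and 29.1 and 44.8 CPM in WT (log2 fold change -2.68 ± 0.63, adjusted p = 0.0103). Acan was lost without replicate 1 of WT (0.0846). Both Acan (0.0741 and 0.0828) and Loxl2 (0.0597 and 0.0612) were lost without replicate 1 or 2 of 41585. The counts were 3 and 2 with WT replicate 1 left out, 4 and 1 without replicate 1 of 41585, 7 and 1 without replicate 2 of 41585, and 9 and 4 with the GC trend removed.

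**Figure D5:**
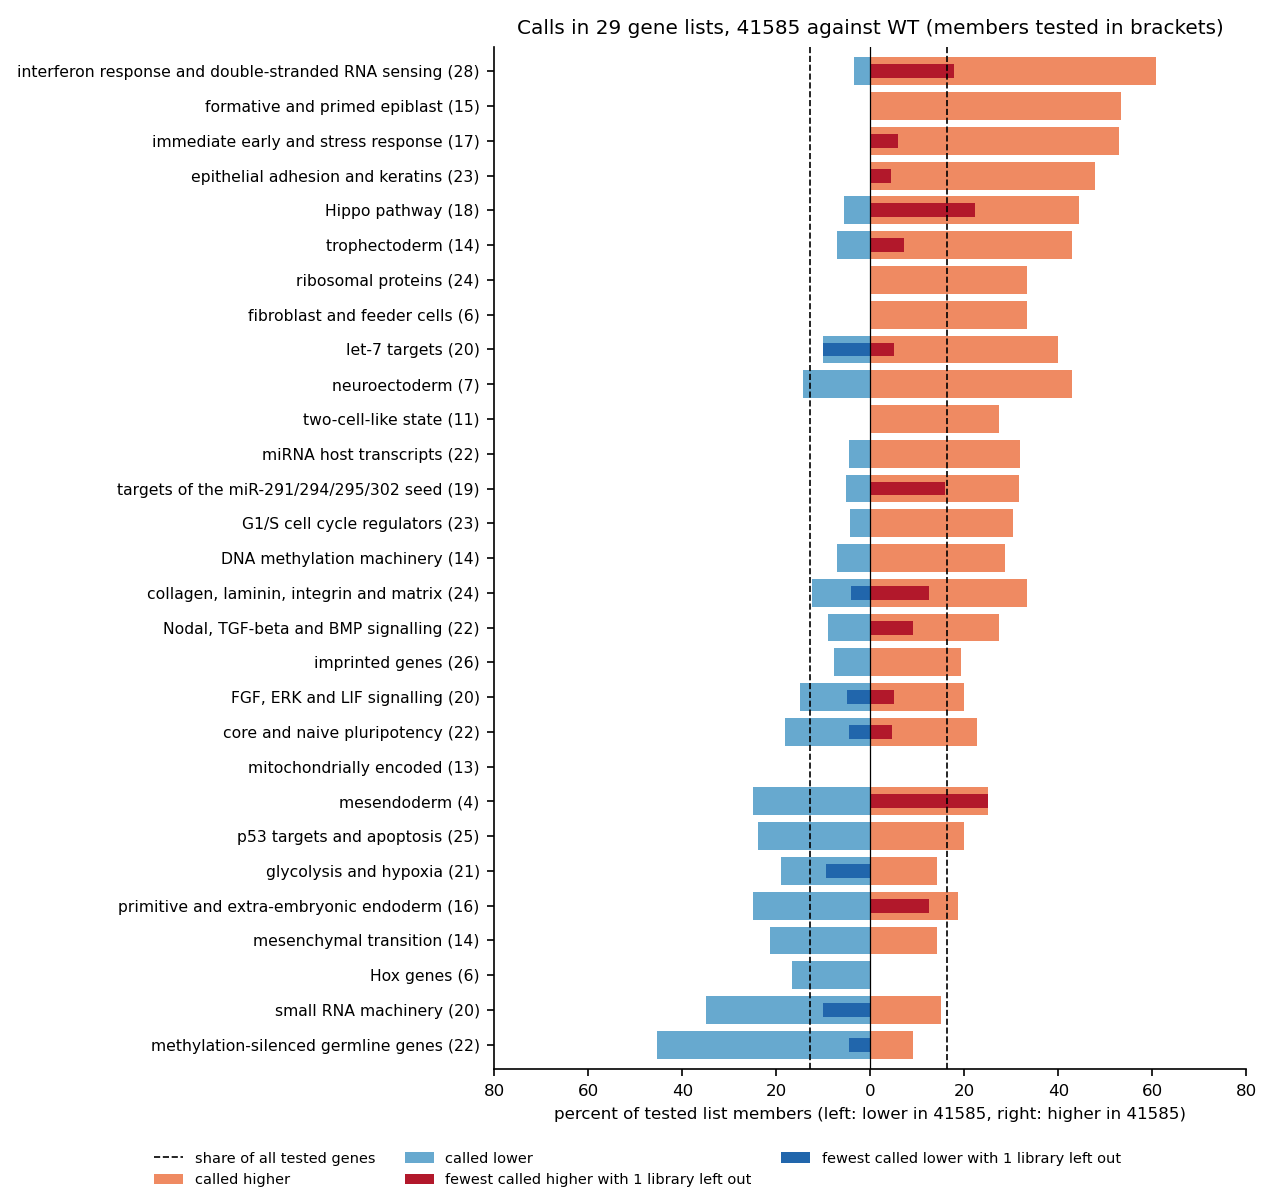
Percent of the tested members of each of 29 gene lists called higher (right) or lower (left) in 41585 than in WT. Thick inner bars give the lowest count with 1 of the 4 libraries left out, and dashed lines the 16.3% and 12.9% of all tested genes. The interferon list reaches farthest to the right, with 17 of 28 members, and the germline list farthest to the left, with 10 of 22.

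Genes of the Hippo pathway, a kinase cascade that restrains the coactivator Yap1, were higher in 8 of 18 cases and lower in 1. The kinase gene Lats2 rose 4.40 on the log2 scale, as above. Ccn1 and Ccn2, secreted matricellular genes that are known targets of Yap1, rose too. Ccn1 stood at 30.9 and 30.9 CPM in 41585 and 2.32 and 3.17 CPM in WT (log2 fold change 3.47 ± 0.38, adjusted p = 0.000411) and Ccn2 at 56.5 and 76.7 CPM in 41585 and 23.2 and 15.5 CPM in WT (log2 fold change 1.79 ± 0.27, adjusted p = 0.00175). These 3 held. Yap1 itself stood at 198 and 217 CPM in 41585 and 117 and 135 CPM in WT (log2 fold change 0.72 ± 0.22, adjusted p = 0.0267), and its DNA-binding partner gene Tead1 fell, at 194 and 207 CPM in 41585 and 411 and 388 CPM in WT (log2 fold change -0.99 ± 0.29, adjusted p = 0.0236). Neither was called once any of the 4 libraries was left out, with adjusted p of 0.202, 0.063, 0.0892 and 0.135 for Yap1 and 0.133, 0.0616, 0.125 and 0.0881 for Tead1. The list held 4 higher members without replicate 1 of WT, 4 without replicate 2 of 41585, 6 without the other libraries in turn, and 6 with the GC trend removed. Of the lower call none was left in any of these 4 fits.

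In Nodal, TGF-beta and BMP signalling 6 of 22 genes were higher and 2 lower. At the ligand level, Nodal stood at 34.5 and 28.2 CPM in 41585 and 8.35 and 15.2 CPM in WT (log2 fold change 1.40 ± 0.39, adjusted p = 0.0196) beside its inhibitor Lefty1. At the receptor level, Acvr1b and Acvr2a, activin receptor genes, fell (log2 fold change -1.39 and -1.29). At the target level, the BMP-responsive inhibitor of differentiation genes rose, with Id3 at 18.7 and 20.5 CPM in 41585 and 0.309 and 1.64 CPM in WT (log2 fold change 4.22 ± 0.71, adjusted p = 0.00271) and Id1 at 21.8 and 30.7 CPM in 41585 and 4.18 and 5.8 CPM in WT (log2 fold change 2.38 ± 0.46, adjusted p = 0.00493). Id3 and Lefty1 held and Id1 was lost without replicate 1 of WT (0.0718). Nodal was lost without replicate 1 of WT (0.187) or without replicate 1 (0.107) or 2 (0.0558) of 41585. Acvr2a was lost in the same 3 fits (0.187, 0.124 and 0.0541). Acvr1b was lost without replicate 1 (0.0943) or 2 (0.0735) of WT and without replicate 2 of 41585 (0.141). The list held 2 higher and 0 lower members with WT replicate 1 left out, 4 and 1 without replicate 1 of 41585, 3 and 0 without replicate 2 of 41585, and 6 and 3 with the GC trend removed.

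FGF, ERK and LIF signalling showed 4 higher and 3 lower of 20, or 35.0% called beside 29.2% of all tested genes. Egr1, an immediate early target of ERK, rose and held, at 142 and 103 CPM in 41585 and 26.9 and 28.1 CPM in WT (log2 fold change 2.15 ± 0.35, adjusted p = 0.00236). The ERK phosphatase genes parted, with Dusp4 at 0.936 and 1.93 CPM in 41585 and 12.8 and 6.89 CPM in WT (log2 fold change -2.77 ± 0.55, adjusted p = 0.00546) and Dusp5 at 19.2 and 12.1 CPM in 41585 and 4.64 and 5.36 CPM in WT (log2 fold change 1.64 ± 0.39, adjusted p = 0.011). Both were lost without replicate 1 of WT (0.0681 and 0.111), as they were without replicate 1 of 41585 (0.0548 and 0.1). The list held 1 and 1 with WT replicate 1 left out, 2 and 1 without replicate 1 of 41585, 2 and 2 without replicate 2 of 41585, and 5 and 6 with the GC trend removed. Immediate early and stress genes were higher in 9 of 17 cases and lower in 0. Dusp1, a MAP kinase phosphatase gene, stood at 75.3 and 58.3 CPM in 41585 and 23.8 and 24.1 CPM in WT (log2 fold change 1.48 ± 0.30, adjusted p = 0.00602), and Ier2, an immediate early gene, at 26.2 and 25.3 CPM in 41585 and 5.72 and 5.58 CPM in WT (log2 fold change 2.19 ± 0.48, adjusted p = 0.00837). Of the 9, Egr1 held, and Dusp1 and Ier2 were lost without replicate 1 of WT (0.0709 and 0.0822). The count was 1 without that library, 3 and 6 without replicates 1 and 2 of 41585, 4 without replicate 2 of WT, and 6 with the GC trend removed.

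The p53 and apoptosis list parted, with 5 of 25 genes higher and 6 lower, or 44.0% called beside 29.2% of all tested genes. Trp53 rose, at 326 and 363 CPM in 41585 and 78.3 and 140.0 CPM in WT (log2 fold change 1.66 ± 0.36, adjusted p = 0.00799), whereas genes that p53 is known to activate moved in both directions. Trp53inp1 stood at 200 and 312 CPM in 41585 and 1547 and 903 CPM in WT (log2 fold change -2.26 ± 0.43, adjusted p = 0.00485), Mdm2, which encodes the ubiquitin ligase of p53, at 110.0 and 111 CPM in 41585 and 362 and 234 CPM in WT (log2 fold change -1.43 ± 0.28, adjusted p = 0.00531), and Pmaip1, the gene of Noxa, at 21.2 and 31.9 CPM in 41585 and 85.4 and 64.3 CPM in WT (log2 fold change -1.50 ± 0.31, adjusted p = 0.00693). Sesn2 and Phlda3, also known p53 targets, rose (log2 fold change 1.26 and 1.17, adjusted p = 0.0067 and 0.0276). Bax, a pore-forming apoptosis gene, rose too (log2 fold change 2.02) and Cdkn1a, above, was not called. Trp53, Trp53inp1, Mdm2, Pmaip1 and Bax were followed with 1 library left out. None of the list was called without replicate 1 of WT, with adjusted p of 0.103, 0.0594, 0.0746, 0.0788 and 0.196 for these 5. Pmaip1 (0.0652) and Bax (0.0738) were also lost without replicate 1 of 41585, and Bax without replicate 2 of 41585 (0.0697). The counts were 3 and 2 without replicate 1 of 41585, and 3 and 5 without replicate 2 of 41585 or with the GC trend removed, where Bax stood at 0.71 (adjusted p = 0.155).

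Germline genes that promoter methylation is known to silence in the soma were lower in 10 of 22 cases, with all libraries in the fit the largest share of the 29 lists, with 2 higher and a median log2 fold change of -1.57. Sycp3, a component of the meiotic synaptonemal complex, stood at 14.9 and 10 CPM in 41585 and 173 and 74.3 CPM in WT (log2 fold change -3.30 ± 0.41, adjusted p = 0.000739) and held. Its partner Sycp2 stood at 4.56 and 2.7 CPM in 41585 and 40.4 and 17.4 CPM in WT (log2 fold change -2.98 ± 0.62, adjusted p = 0.00683), Dazl, which encodes a translational regulator of germ cells, at 29.8 and 30.0 CPM in 41585 and 232 and 86.9 CPM in WT (log2 fold change -2.41 ± 0.57, adjusted p = 0.0107), and Mael, a piRNA pathway gene, at 26.7 and 23.3 CPM in 41585 and 135 and 85.5 CPM in WT (log2 fold change -2.14 ± 0.53, adjusted p = 0.0125). In all of these, replicate 1 of WT was the highest library, and without it 1 member of the list, Sycp3, was called lower. Without that library adjusted p was 0.0822 for Sycp2, 0.134 for Dazl and 0.11 for Mael. Without replicate 1 of 41585 Dazl (0.0643) and Mael (0.0635) were lost, and without replicate 2 of 41585 all 3 were (0.0526, 0.0572 and 0.07). The list held 1 higher and 5 lower members without replicate 1 of 41585, 2 and 1 without replicate 2 of 41585, 1 and 10 without replicate 2 of WT, and 2 and 9 with the GC trend removed. Without replicate 1 of WT or replicate 2 of 41585 its share of lower members was below that of other lists, such as the small RNA machinery with 2 and 4 of 20. The 2 germline genes that rose with all libraries in the fit were Rpl10l and Tex19.1 (log2 fold change 1.44 and 1.26, adjusted p = 0.00468 and 0.015). The DNA methylation machinery showed 4 higher and 1 lower of 14, with Dnmt3b and Dnmt3a (log2 fold change 0.84) among those that rose. Dnmt3a was lost without replicate 1 of WT (0.244) or either library of 41585 (0.0719 and 0.138). The machinery list held 0 calls without replicate 1 of WT, 1 higher without either library of 41585, and 3 and 1 with the GC trend removed.

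The knockout served as the reference for a line without Dicer. Against KO, 0 of 14629 genes (0.0%) were called in 41585 with edgeR, with 995 at an unadjusted p under 0.05. DESeq2 called 1, Fmr1nb, a gene that the naming rule does not cover, at 10.5 and 21.2 CPM in 41585 and 2.68 and 0.616 CPM in KO. A count of 0 does not show that the lines act alike. Side by side with the WT comparison, the log2 difference of 41585 from KO was 0.19 ± 0.51 for Lats2, -0.06 ± 0.63 for Irf2, -0.08 ± 0.35 for Lin28a, 0.08 ± 0.26 for Klf4, -0.10 ± 0.43 for Gbp2 and -0.51 ± 0.40 for Sycp3. Some genes with a high level in 41585 were lower in KO without passing the test, such as Krt19 at 26.6 and 14.9 CPM (0.92 ± 0.41) and H19, an imprinted non-coding RNA gene, at 60.3 and 14.2 CPM in 41585 and 5.98 and 2.62 CPM in KO. Replicate 2 of KO stood apart at the Y chromosome. Its reads of Ddx3y, Eif2s3y, Uty and Uba1y were 0, where replicate 1 held 219, 116, 53.4 and 28.8 CPM. These are the 4 genes called in 41585 against KO without replicate 1 of KO, and Igf2 was the 1 gene called without replicate 1 of 41585.

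The line 41584, complemented and called similar to WT, had received a form of Dicer too. In 41585 against 41584, 1861 genes (12.7%) were called, 1119 higher and 742 lower, and between 348 and 1820 with 1 library left out. On the log2 scale Lin28a differed by -3.60 ± 0.37, adjusted p = 0.000306, Klf4 by -2.04 ± 0.26, adjusted p = 0.00106 and Irf1 by 2.76 ± 0.38, adjusted p = 0.00149. The 41584 libraries held 0 and 0.155 CPM of Irf2 and 0.128 and 0 CPM of Gbp2, too few reads for a fold. In 41584 against WT, 0 genes (0.0%) were called with edgeR, with 706 at an unadjusted p under 0.05, and 28 with DESeq2. This count was 106 without replicate 1 of 41584, whose replicate 2 lay toward 41585 in several genes above, with 163 CPM of Ccnd1 and 42.1 CPM of Ccnd2 against 41.7 and 7.03 CPM in replicate 1. These comparisons share the 41585 or the WT libraries with the main one.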

How the data were processed

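The authors deposited raw counts (whole reads per gene and library) for 47643 genes in 12 libraries, matched to samples by the descriptions. Per the submitters' processing notes, reads were aligned with STAR 2.4.2a to mm10 (GRCm38). How reads were counted, and on which annotation, is not stated in these sources. GENCODE M21 on the same build named 47224 genes and gave 3' UTRs.

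The test was the robust quasi-likelihood test of edgeR 4.0.16 under R 4.3.3, with TMM scaling and 1 mean per group over all 12 libraries, after filterByExpr, which left 14629 genes. The common biological coefficient of variation was 0.278, on 6 residual degrees of freedom. A call required an adjusted p (Benjamini-Hochberg) under 0.05. Values are log2 fold change ± standard error. Against a group without a read, the fold is a lower bound that sets the group at 3 counts, and groups of 1 to 3 reads a ratio with its 95% interval. Both cover counting error only.

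Alternatives were DESeq2 1.42.0, other scalings and filters, a replicate block and leaving out each library, where the lone library of its group is assumed to vary like the other groups. Removing the trend of each library on GC content and length (splines with 5 degrees of freedom, 14596 genes) was chosen after seeing the data. The script was tested on simulated data. The comparison, the 29 lists and the rule for named genes were chosen with earlier results of these data known. That rule takes the small RNA machinery, the 12 higher and 12 lower genes of largest fold with a mean of at least 5 CPM, the 6 and 6 of smallest adjusted p, and up to 4 members of each list, plus those needed to state what a list did. Its clause on genes called against both WT and KO named none, and 2 genes it covers are not reported here.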

Additional observations from a re-analysis of the deposited data

How the results depend on the processing

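The count of genes called in 41585 against WT was between 419 and 2711 with 1 library left out (239 to 1435 higher, 180 to 1276 lower), against 4274 (2383 and 1891) with all. With the GC and length trend removed and replicate 1 of WT left out together, 776 genes were called, 399 higher and 377 lower. The count was within 1.5 times under the other alternatives run, between 3776 with the GC and length trend removed and 6023 with only the 4 libraries, with 4651 by DESeq2. Against KO the count of 0 became 1 with DESeq2 and 0 to 4 with 1 library left out. Against 41584 it was 348 to 1820 with 1 library left out. In 41584 against WT it became 28 with DESeq2, 1 (Uchl5, outside the naming rule) with the trend removed, and 0 to 106 with 1 library left out. The shift of genes with the AGCACTT match was -0.136 as a plain difference of medians and 0.076 after the trend was removed, and the cause was not tested.

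What libraries of the same number share beyond that number is not stated. The deviations of WT and 41585 replicate 1 from their group means correlated at -0.08. With a replicate block, 4650 genes were called in 41585 against WT, 2170 against 41584, and 0 in each of the other comparisons. Depth, at most 8863145 reads a library here, limits what can be seen in genes with few reads, and 2 libraries a group limit the rest.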

Other observations

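Genes that host miRNAs were called higher in 7 of 22 cases and lower in 1, with a median log2 fold change of 0.82. These became 3, 0 and 0.49 with the GC trend removed. Ctdsp1, the host of miR-26b, stood at 36.2 and 27.8 CPM in 41585 and 8.04 and 9.63 CPM in WT (log2 fold change 1.85 ± 0.36, adjusted p = 0.00549), and Pank1, the host of miR-107, at 29.1 and 46.2 CPM in 41585 and 9.28 and 12.1 CPM in WT (log2 fold change 1.81 ± 0.50, adjusted p = 0.0196). Mir17hg, the host of the miR-17 cluster, stood at 44.7 and 53.9 CPM in 41585 and 60.8 and 64.3 CPM in WT (log2 fold change -0.34, adjusted p = 0.422). No member of this list was called without replicate 1 of WT (0.0746 for Ctdsp1 and 0.156 for Pank1), and Pank1 was also lost without replicate 2 of WT (0.0579) or of 41585 (0.113). Glucose uptake and glycolysis genes parted, with 3 of 21 higher and 4 lower, or 33.3% called beside 29.2% of all tested genes. The counts were 2 and 4 with the GC trend removed, 0 and 3 with WT replicate 1 left out, 7 and 2 with WT replicate 2 left out, 0 and 2 without replicate 1 of 41585, and 1 and 2 without its replicate 2. Slc2a3, a glucose transporter gene, stood at 437 and 452 CPM in 41585 and 1249 and 1876 CPM in WT (log2 fold change -1.81 ± 0.32, adjusted p = 0.00329), and Bnip3, a hypoxia-induced mitophagy gene, at 72.8 and 71.4 CPM in 41585 and 171 and 292 CPM in WT (log2 fold change -1.68 ± 0.35, adjusted p = 0.0067), and both were called whichever library was left out. Eno1, the enolase gene, rose, at 1886 and 1680 CPM in 41585 and 329 and 755 CPM in WT (log2 fold change 1.72 ± 0.41, adjusted p = 0.0111), but not without replicate 1 of WT (0.122) or of 41585 (0.0563).

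Imprinted genes were called in 5 higher and 2 lower of 26 cases, also with the GC trend removed, and in 0 without replicate 1 of WT. With all libraries 26.9% of the imprinted list was called, near the 29.2% of all tested genes. H19 stood at 60.3 and 14.2 CPM in 41585 and 1.24 and 1.75 CPM in WT (log2 fold change 4.61 ± 1.40, adjusted p = 0.0285), and Peg10, a retrotransposon-derived gene, at 1085 and 350.0 CPM in 41585 and 125 and 291 CPM in WT (log2 fold change 1.78 ± 0.54, adjusted p = 0.0282), and in both the 2 libraries of 41585 differed by more than 3-fold. Neither was called without replicate 1 of WT (0.214 and 0.224) or of 41585 (0.155 and 0.344), and H19 was also lost without replicate 2 of WT (0.138) or of 41585 (0.0549). Genes of the two-cell-like state, a rare state of embryonic stem cell cultures, were higher in 3 of 11 cases, and none of them was called without replicate 1 or 2 of WT or replicate 1 of 41585. With all libraries 27.3% of the 11 were called, near the 29.2% of all tested genes, and 4 were higher with the GC trend removed. Zscan4d stood at 50.9 and 38.8 CPM in 41585 and 10.2 and 7.99 CPM in WT (log2 fold change 2.31 ± 0.79, adjusted p = 0.0448), was lost whichever library was left out, and has near-identical copies among which reads could be split. Ribosomal protein genes were higher in 8 of 24 cases, in 0 without replicate 1 of WT or either library of 41585, and in 4 higher and 1 lower with the GC trend removed. Of 13 mitochondrially encoded genes 0 were called by edgeR or DESeq2. With the GC trend removed 1 was higher, and with no filter on low counts, or with only the 4 libraries, 1 was lower. With all libraries they had log2 fold changes from -0.89 to 0.38. Of 16 tested miRNA genes 0 were called higher and 1 lower (Mir186, named after its value was seen), but poly(A) libraries do not measure mature miRNAs.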
